A study of Homo sapiens with 6 samples.

Results

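The genes described here are 10 acute-phase and innate defence genes inducible by NF-kB, followed across PC3 cells sorted for high or low NRP2. They were chosen by name (LCN2, SAA1, SAA2, PTX3, PI3, SLPI, IL32, DEFB1, PLAUR and IER3), and 9 of the 10 names were found among the 27958 genes of the deposited expression table. DEFB1, the gene of an epithelial defensin, was not listed and is not analysed here. PC3 is an established, androgen-independent human line from a bone metastasis of prostate cancer, and all 6 libraries come from it. The NRP2-high group (3 libraries, S38, S39 and S40) and the NRP2-low group (3 libraries, S35, S36 and S37) come from cells stained with an NRP2 antibody, separated by flow cytometry, and cultured for up to 2 weeks before RNA was taken at different passages. NRP2, neuropilin-2, is a membrane protein that binds semaphorins and vascular growth factors. The labels name no drug or genetic change in either group, and they do not say whether a group's libraries began as separate sorts or cultures. The p-values therefore measure the spread between these libraries, which may be technical or may hold differences between passages. The libraries of a group may not be independent replicates.

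The acute-phase response is the release of defence proteins into blood and tissue fluid after infection or injury. Interleukin-1, interleukin-6 and tumour necrosis factor switch it on, through NF-kB, C/EBP proteins and STAT3, in liver and in epithelia. Several of the same genes are expressed by carcinoma cells, where an active NF-kB pathway can keep them on.

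The libraries held 17551302 to 30726744 reads, recovered from the levels and gene lengths of the table on the basis that the smallest value of a library is 1 read. Levels are in TPM, which divides reads by gene length and scales each library to the same total, and so allows levels of different genes to be compared. The sorted gene matched its labels, with NRP2 at 48.1, 42.5 and 16.6 TPM in NRP2-high cells, against 7.55, 5.10 and 2.71 TPM in NRP2-low libraries. Mitochondrially encoded genes took 11.1% to 18.7% of the TPM in NRP2-high cells and 14.3% to 31.0% in NRP2-low cells, the highest share being that of S37. Epithelial markers, 4 of 5 listed, summed to 433 to 759 TPM in NRP2-high and 405 to 694 TPM in NRP2-low cells, nearly all from KRT8 and KRT18, while EPCAM and KRT19 stayed below 1 TPM throughout. Leukocyte markers, 6 of 7 listed, came to a sum of 0.123 to 0.324 TPM in NRP2-high and 0.124 to 0.373 TPM in NRP2-low cells, each below 1 TPM. Fibroblast markers, 4 of 5 listed and none at 0 throughout, summed to 0.618 to 2.97 TPM in NRP2-high and 0.0140 to 0.337 TPM in NRP2-low cells, without overlap. Endothelial markers, 5 of 5 listed, summed to at most 0.114 TPM in NRP2-high cells and at most 0.168 TPM in NRP2-low cells. The part of either in the results was not tested. None of the 5 neutrophil markers was listed. Of 5 hepatocyte markers only ALB was listed, and it was at 0 in every library but S40, which had 0.0482 TPM.

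The letters near the start of these genes are shown first, because the genes were grouped as inducible by NF-kB. RefSeq promoter windows of 300 bases (build GRCh38.p14), 250 before and 50 after a start, were found for 4 of the 10 genes, LCN2, PTX3, PLAUR and IL32, the last with 2 starts. SAA1, SAA2, PI3, SLPI, DEFB1 and IER3 had no entry. The RefSeq start lies downstream of the gene start in the deposited table for LCN2, PTX3 and IL32, and the LCN2 and IL32 matches shown therefore fall inside the span the table gives to these genes. Each window was searched on both strands for the NF-kB consensus (2 G, 2 purines, any 2 bases, 2 pyrimidines, 2 C), for the C/EBP form TTNNGCAA and for the STAT form TTCNNNGAA. The NF-kB consensus was in the LCN2 window, in the PTX3 window and in 1 of the 2 IL32 windows, and it is in 14.0% of all 35116 windows. The 30 bases around each match follow, 5′ to 3′ on the strand of the gene, with the match in capitals.

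LCN2, NF-kB consensus from 175 bases before the RefSeq start (chr9:128149268-128149297, plus strand): cagcactccgGGAATGTCCCtcactctccc
PTX3, 2 overlapping NF-kB matches from 97 bases before the RefSeq start (chr3:157436744-157436773, plus strand): ccaaattcaGGGGAACTCCCgttaccgcag
IL32, 2 overlapping NF-kB matches from 99 bases before the RefSeq start (chr16:3065295-3065324, plus strand): ctgtactcaGGGAGTTTCCCcagccagctg
LCN2, C/EBP form from 143 bases before the RefSeq start (chr9:128149299-128149328, plus strand): gtccctctgtcTTGCCCAAtcctgaccagg
PTX3, C/EBP form from 156 bases before the RefSeq start (chr3:157436683-157436712, plus strand): gcggtttaataTTGTGCAActtccacattt
PLAUR, C/EBP form from 62 bases before the RefSeq start (chr19:43670213-43670242, minus strand): ctgactcgctcTTTCGCAAaacgtctggga

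LCN2 and PTX3 thus carried both forms, the C/EBP letters nearer to the start than the NF-kB letters in LCN2 and farther from it in PTX3. The C/EBP form is in 10.5% of all windows. The STAT form, in 7.66% of all windows, had no match in the windows of these genes. A match of letters describes the sequence and does not show that a factor is bound.

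Among the members the serum amyloid gene SAA1 fell in NRP2-high cells. The members with the highest levels, IER3, PLAUR and PTX3, did not pass the test. LCN2 and IL32 had fewer reads in each NRP2-high than in each NRP2-low library, but were too low to be tested and did not pass when the filter was dropped. Expression was tested with limma on log2(TPM + 1) in genes with at least 1 TPM in at least 3 libraries, 15214 in all. A gene was called at a Benjamini-Hochberg adjusted p below 0.05 over all of these, and fold changes are NRP2-high minus NRP2-low. Of the 9 listed members 4 entered the test, SAA1, PTX3, PLAUR and IER3. The remaining 5, LCN2, SAA2, PI3, SLPI and IL32, were below the filter. Of the 4 tested, 1 was called and it was lower. Over all tested genes 0.835% were called in either direction and 0.486% were called lower. SAA1 entered the test only through its NRP2-low libraries, so it had to differ, and the count is a description.

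**Figure D1:**
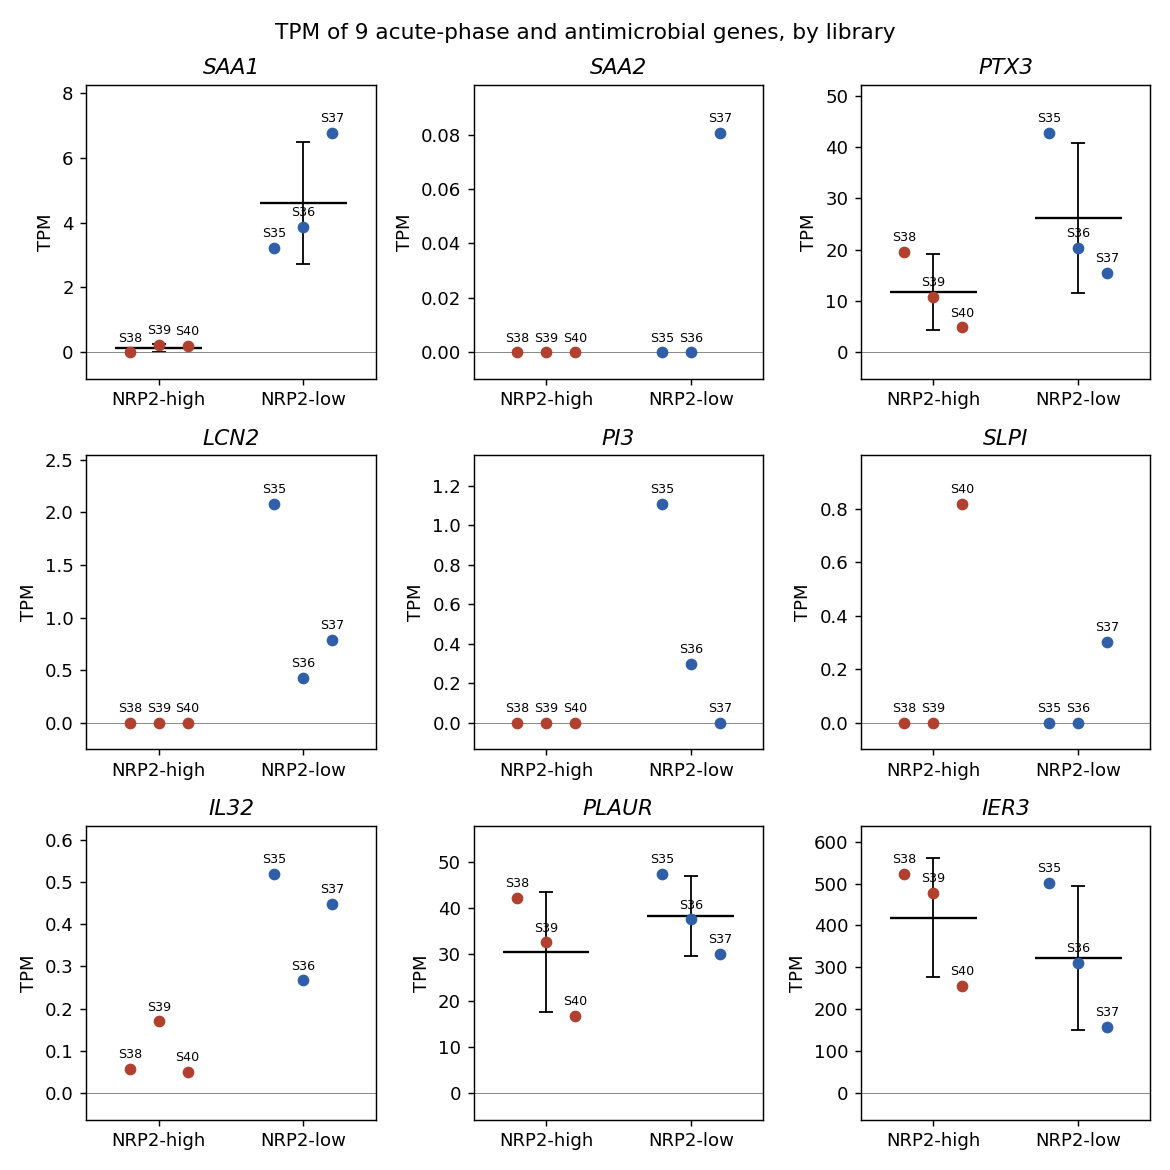
TPM (vertical axis, a separate linear scale for each gene) of the 9 listed members in each library, NRP2-high in red and NRP2-low in blue; black lines and bars give the mean and SD of 3 libraries for the 4 tested genes only. SAA1, LCN2 and IL32 have groups that do not overlap, whereas PTX3, PLAUR and IER3 spread widely within each group. Groups without overlap and lower in NRP2-high cells make up 3.14% of tested genes, and no share is given for genes below the filter.

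SAA1 encodes serum amyloid A, a lipoprotein-bound acute-phase protein of liver and inflamed epithelium. SAA1 (ENSG00000173432.11, GRCh38, chromosome 11, 18266174 to 18269974, plus strand) measured 0, 0.229 and 0.204 TPM in S38, S39 and S40 of the NRP2-high group, against 3.21, 3.87 and 6.76 TPM in S35, S36 and S37 of the NRP2-low group. Every NRP2-low library lay above every NRP2-high library, and S37 was the highest. The mean level was 0.144 ± 0.126 TPM in the NRP2-high group and 4.61 ± 1.88 TPM in the NRP2-low group (SD, n = 3 each). For SAA1 limma gave a log2 fold change of -2.25 (SE 0.30, 95% interval -2.93 to -1.57, adjusted p = 0.0131).

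The fold change of SAA1 rests on few reads, 2 in the NRP2-high libraries together and 68 in the NRP2-low libraries. Relative to total reads the level in NRP2-low cells was 32 times that in NRP2-high cells, with an exact 95% interval of 8.52 to 270 that covers counting error only. On the log2 scale the value depended on how low levels are treated, and it was -4.38 with a pseudocount of 0.1 and -4.33 in limma's voom on the recovered reads. The call of SAA1 ended without library S36 (adjusted p = 0.0699) and when no filter on low values was applied (0.0549). Without S37, the library with the highest mitochondrial share, the log2 fold change was -1.99 (adjusted p = 0.0451). After mitochondrially encoded genes were taken out of the TPM it was -2.49 (0.0182).

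SAA2 (ENSG00000134339.8, chromosome 11, 18239223 to 18248635, minus strand), the neighbouring copy of SAA1, had 1 read in all, in NRP2-low library S37, so no fold is given. The genes are near-identical in part. Of the 862 different 50-base words in SAA1 transcripts of GENCODE release 29, 46.6% also occur in SAA2 transcripts, against 17.9% of the 2240 words of SAA2. How the deposited counting divided shared reads is not given in the sources used here, so the SAA1 value can hold reads of SAA2, and the reverse. SAA2-SAA4, a readthrough gene that overlaps SAA2, is not listed.

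PTX3 encodes the long pentraxin 3, a secreted pattern recognition protein made at sites of inflammation. PTX3 (ENSG00000163661.3, chromosome 3, 157436789 to 157443628, plus strand) measured 19.6, 10.8 and 4.86 TPM in S38, S39 and S40 of the NRP2-high group, against 42.7, 20.4 and 15.4 TPM in S35, S36 and S37 of the NRP2-low group. The groups overlapped, since S38 lay above S37 and just below S36. The mean level was 11.8 ± 7.42 TPM in the NRP2-high group and 26.2 ± 14.5 TPM in the NRP2-low group (SD, n = 3 each). For PTX3 limma gave a log2 fold change of -1.14 (SE 0.49, 95% interval -2.25 to -0.035), which did not pass the test over all genes (adjusted p = 0.680). It ran from -1.58 without S38 to -0.67 without S40, below 0 in all 6 fits that leave out a library. PTX3 lies within VEPH1 on the opposite strand, which was at 2.16 to 3.40 TPM in NRP2-high and 2.93 to 6.07 TPM in NRP2-low libraries, and whether the counting used strand is not given in the sources used here.

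**Figure D2:**
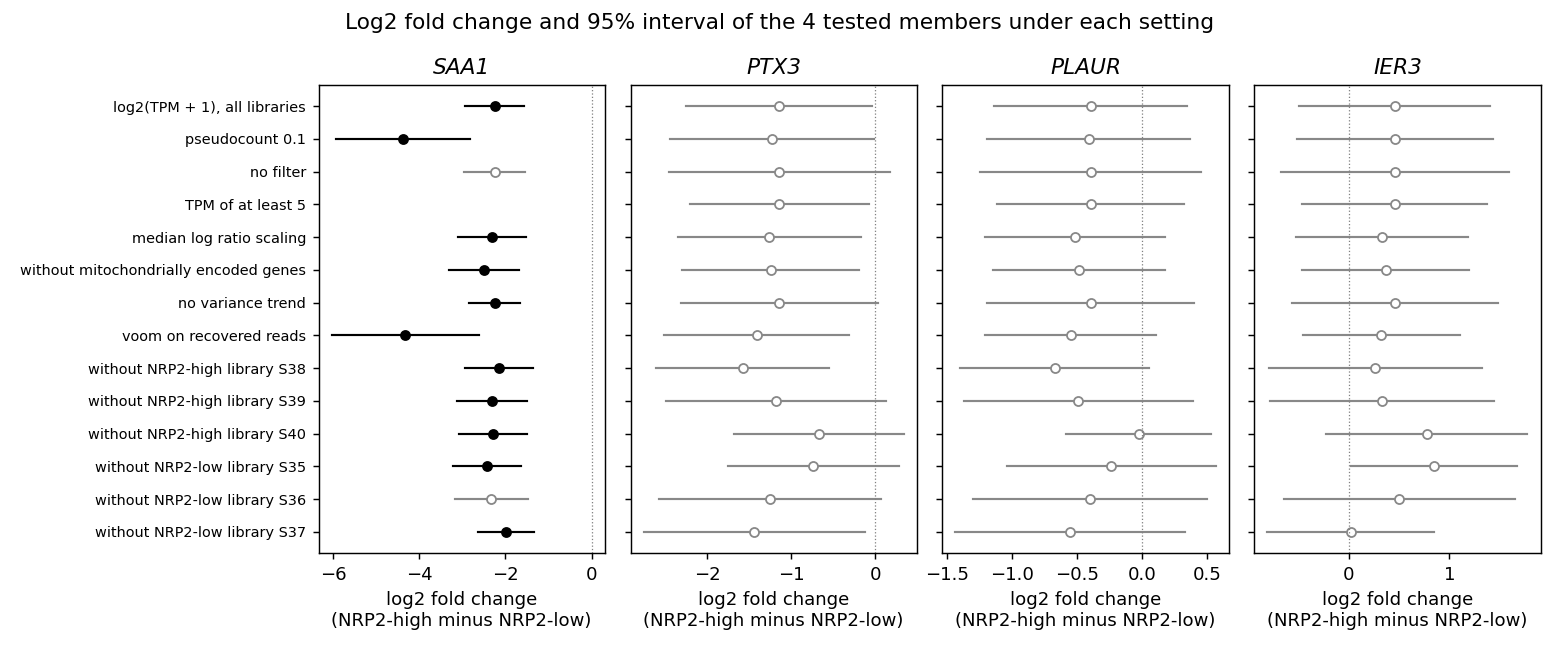
Log2 fold change (NRP2-high minus NRP2-low, horizontal axis) with its 95% interval for SAA1, PTX3, PLAUR and IER3 in the main fit and in each alternative; filled black points have an adjusted p below 0.05. SAA1 stays between -4.38 and -1.99 wherever it is tested, and it has no point at the 5 TPM filter; PTX3 and PLAUR are below 0 and IER3 is above 0 in every fit, none of them called.

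LCN2, IL32 and PI3 were expressed at the edge of detection. LCN2 encodes lipocalin 2, which binds bacterial siderophores and so withholds iron from bacteria. LCN2 (ENSG00000148346.11, chromosome 9, 128149071 to 128153455, plus strand) measured 0 TPM in all 3 NRP2-high libraries, against 2.08, 0.429 and 0.785 TPM in S35, S36 and S37 of the NRP2-low group, which hold 26, 4 and 7 reads. The groups did not overlap, and 70.3% of the reads came from S35. The observed NRP2-low level was 11.6 times a floor of 3 reads over the NRP2-high group, or 6.06 times without S35, which leaves 11 reads. Both values leave out the counting error of the NRP2-low reads, so neither is a lower bound. An exact two-sided permutation test gave p = 0.1, the smallest that 3 against 3 libraries allow, and in the fit without a filter the log2 fold change was -0.99 (adjusted p = 0.465).

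IL32 encodes interleukin-32, a cytokine of epithelial and lymphoid cells that induces further cytokines. IL32 (ENSG00000008517.16, chromosome 16, 3065297 to 3082192, plus strand) measured 0.0570, 0.170 and 0.0507 TPM in S38, S39 and S40 of the NRP2-high group, against 0.518, 0.267 and 0.447 TPM in S35, S36 and S37 of the NRP2-low group. The groups did not overlap. Behind these values stood 5 reads from NRP2-high and 26 from NRP2-low cells, a ratio of 4.89 of NRP2-low over NRP2-high (exact 95% interval 1.85 to 16.3, counting error only; exact permutation p = 0.1). In the fit without a filter its log2 fold change was -0.37 (adjusted p = 0.451).

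PI3 encodes elafin, a secreted inhibitor of neutrophil elastase, and SLPI a related inhibitor with antimicrobial activity that lies near it on chromosome 20. PI3 (ENSG00000124102.4) spans 45174876 to 45176544 on the plus strand and SLPI (ENSG00000124107.5) 45252239 to 45254564 on the minus strand. PI3 had 0 reads in NRP2-high libraries, against 5 reads in S35, 1 in S36 and 0 in S37 of the NRP2-low group (exact permutation p = 0.4). Its observed NRP2-low level was 1.88 times the same floor, again without the counting error of the NRP2-low reads. The groups overlapped at 0, and without S35 only 1 read of PI3 would remain. SLPI had 3 reads in NRP2-high library S40 and 1 read in NRP2-low library S37 and 0 in the others, so both groups are at or under the floor and no fold is given. A count of 0 among the 67201346 reads of the NRP2-high libraries, as for LCN2, SAA2 and PI3, allows up to 3 reads.

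Groups without overlap and lower in NRP2-high cells were found for 3.14% of all tested genes. Among the 4 tested members this was the case for SAA1 alone, for which the filter fixed it, so nothing is read from the count. LCN2 and IL32 also had such groups but were below the filter, where no share is given for comparison. Nor is a share given for groups higher in NRP2-high cells. In bulk RNA, fewer cells that express a gene and less RNA per cell cannot be told apart.

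PLAUR and IER3 were present in every library and their groups overlapped. PLAUR encodes the urokinase receptor, which focuses plasminogen activation at the cell surface. PLAUR (ENSG00000011422.11, chromosome 19, 43646095 to 43670166, minus strand) measured 42.2, 32.6 and 16.6 TPM in S38, S39 and S40 of the NRP2-high group, against 47.3, 37.6 and 30.2 TPM in S35, S36 and S37 of the NRP2-low group. S40 alone lay below all NRP2-low libraries. The mean level was 30.5 ± 12.9 TPM in the NRP2-high group and 38.3 ± 8.60 TPM in the NRP2-low group (SD, n = 3 each), with a log2 fold change of -0.39 (SE 0.33, 95% interval -1.14 to 0.35, limma adjusted p = 0.895). Without S40 the log2 fold change of PLAUR was -0.024, so its distance from 0 rests on that library.

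IER3 encodes a stress-inducible regulator of cell survival, an early response gene rather than a secreted protein. IER3 (ENSG00000137331.11, chromosome 6, 30743199 to 30744554, minus strand) measured 522, 478 and 256 TPM in S38, S39 and S40 of the NRP2-high group, against 501, 311 and 158 TPM in S35, S36 and S37 of the NRP2-low group. S38 and S35, from opposite groups, were the highest. The mean level was 419 ± 142 TPM in the NRP2-high group and 323 ± 172 TPM in the NRP2-low group (SD, n = 3 each), and limma gave a log2 fold change of 0.46 (SE 0.42, 95% interval -0.50 to 1.41, adjusted p = 0.895). It was 0.020 without S37 and 0.85 without S35. IER3-AS1, which overlaps IER3 on the opposite strand, was at 1.38 to 4.86 TPM in NRP2-high and 1.36 to 2.28 TPM in NRP2-low libraries.

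By level, IER3 stood first in both groups and above PLAUR in every library, and PLAUR and PTX3 followed with ranges that overlapped in each group. In NRP2-low libraries SAA1 came next, at 3.21 to 6.76 TPM, below PTX3 and above LCN2 in every library. The ranges of LCN2, PI3, IL32, SLPI and SAA2 overlapped from each to the next. In NRP2-high libraries the 6 other members were below 1 TPM in every library, and LCN2, PI3 and SAA2 were at 0 in all 3.

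The spread of IER3, PLAUR and PTX3 within a group had the same form in all 3 genes. In each, S38 was above S39 and S39 above S40 in the NRP2-high group, and S35 was above S36 and S36 above S37 in the NRP2-low group. This order was found in 14.4% of all tested genes, and in 9.11% after mitochondrially encoded genes were taken out, when IER3, PLAUR and PTX3 still had it. SAA1 did not have it, with S37 the highest and S38 the lowest. The order, chosen after values were seen, was found in 1 of 3 other acute-phase genes and 1 of 4 other antimicrobial genes. Both counts were the same without mitochondrially encoded genes. It was also found in 8 of 14 immediate early and related genes, 6 of 12 receptors and partners and 5 of 25 inducers and regulators. Without mitochondrially encoded genes it was found in 6, 5 and 3 of them. PLAU, which encodes urokinase, the ligand of the PLAUR product, was among them, at 842, 583 and 360 TPM in S38, S39 and S40, against 688, 431 and 301 TPM in S35, S36 and S37. The mitochondrial share had the reverse order, at 11.1%, 16.1% and 18.7% in S38, S39 and S40, against 14.3%, 15.1% and 31.0% in S35, S36 and S37. Its part in the spread was not tested. RNA was taken at different passages, but the S numbers appear in no label, so no passage can be matched to a library. The part of passage in the spread was not tested, and what else sets these libraries apart is not known here.

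**Figure D3:**
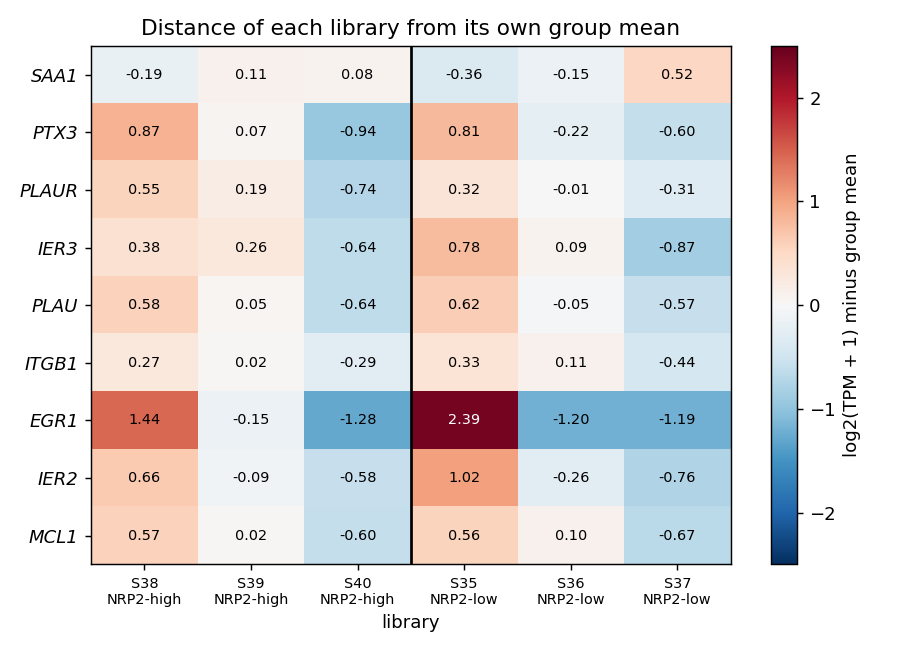
Distance of each library from the mean of its own group in log2(TPM + 1), by gene (rows) and library (columns, NRP2-high left of NRP2-low), red above and blue below the mean. IER3, PLAUR, PTX3 and PLAU are highest in S38 and S35 and lowest in S40 and S37, whereas SAA1 is highest in S37. The genes beside the members were picked, IER2 after its values were seen. Genes with another order were left out, such as TNFAIP6 and NFKBIZ, which were lowest in S38 and highest in S40 among NRP2-high libraries.

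The other genes of the response are given by role, from lists of genes drawn up by name. Of 22 other acute-phase genes 12 were listed and 3 tested, of which 1 rose and 0 fell. The one that rose was FGB, the fibrinogen beta chain, a coagulation factor that the liver raises in the acute phase. FGB was at 2.90, 2.62 and 6.25 TPM in NRP2-high cells, against 0.0472, 0.0633 and 0.132 TPM in NRP2-low libraries, with a log2 fold change of 2.11 (SE 0.32, limma adjusted p = 0.0221). All 3 NRP2-high libraries were above all NRP2-low libraries, which hold 4 FGB reads in all, and the gene entered the test only through the NRP2-high group. The call of FGB ended without any 1 of S38, S39, S35, S36 or S37 (adjusted p from 0.0550 to 0.111) and without a filter (0.0824). Its log2 fold change was 4.39 with a pseudocount of 0.1 and 5.10 with voom. FGB lay in the opposite direction to SAA1, but the filter fixed the direction of both, so nothing is read from the contrast.

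The other tested acute-phase genes were not called. TNFAIP6, which encodes a hyaluronan-binding protein that also binds pentraxin 3, averaged 60.0 ± 28.3 TPM in NRP2-high cells and 27.5 ± 8.74 TPM in NRP2-low cells (SD, n = 3 each; log2 fold change 1.02, limma adjusted p = 0.561). SERPINA1, alpha-1-antitrypsin, averaged 0.983 ± 0.184 TPM in NRP2-high cells and 3.30 ± 2.21 TPM in NRP2-low cells (log2 fold change -0.95, limma adjusted p = 0.731), with S37, at 0.841 TPM, among the low values. Of 38 other antimicrobial genes 14 were listed and 4 tested, and 0 were called (1 of the 4 at an unadjusted limma p under 0.05, WFDC21P). WFDC21P, a pseudogene of the WAP domain family that PI3 and SLPI belong to, was at 19.6, 11.6 and 37.0 TPM in NRP2-high cells, against 4.66, 0.468 and 3.10 TPM in NRP2-low libraries. Its groups did not overlap, and its log2 fold change of 2.73 (SE 0.54) had a limma adjusted p of 0.0784, or 0.0379 without S35. ADM (adrenomedullin, log2 fold change -0.80) and ANG (angiogenin, 0.17) did not pass.

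The inducers and regulators of these genes that were called were all lower in NRP2-high cells. Of 30 inducers and regulators 28 were listed and 25 tested, of which 0 rose and 4 fell, the cytokine genes IL6, IL1B and TNF and the NF-kB inhibitor gene NFKBIA. These 4 were listed with their fall already known, so they are given as context. IL1B and TNF entered the test through the NRP2-low group alone and had to differ. The call of NFKBIA ended without S39 (limma adjusted p = 0.0582). IL1B, known to induce SAA1 together with IL6, had 0 reads in NRP2-high libraries, against 56.6, 42.4 and 14.7 TPM in NRP2-low libraries. IL6 averaged 1.44 ± 0.447 TPM in NRP2-high cells and 162 ± 63.7 TPM in NRP2-low cells (SD, n = 3 each; log2 fold change -5.99). The median log2 fold change of the 25 was -0.37, against 0.10 over all tested genes, and 19 lay below 0. The list was drawn up with earlier results of these data known, and IL1R1 also entered the test through the NRP2-low group alone. No share of all tested genes below 0 is given, so the median and the 19 only describe the list.

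The regulator genes NFKBIZ and CEBPB were present in both groups and were not called. NFKBIZ, which encodes an NF-kB co-factor needed for LCN2 induction, averaged 33.5 ± 14.1 TPM in NRP2-high cells and 46.3 ± 19.8 TPM in NRP2-low cells (log2 fold change -0.47, limma adjusted p = 0.895). CEBPB, which encodes a C/EBP factor, averaged 31.3 ± 15.0 TPM in NRP2-high cells and 57.5 ± 20.8 TPM in NRP2-low cells (SD, n = 3 each; log2 fold change -0.89, 95% interval -1.67 to -0.12, limma adjusted p = 0.589). NFKBIZ and CEBPB were named after their values were seen. LIF (0.47), IL6ST, the shared receptor chain of the interleukin-6 family (-0.32), and OSMR (-0.13) had the highest levels among those not called.

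Among receptors and partners of the members 22 of 30 were listed and 12 tested, of which 0 rose and 1 fell, TLR2. TLR2 encodes a Toll-like receptor for bacterial lipoproteins that also responds to serum amyloid A. It was at 0.316, 0.244 and 0.125 TPM in S38, S39 and S40 of the NRP2-high group, against 7.85, 5.16 and 2.47 TPM in S35, S36 and S37 of the NRP2-low group, a log2 fold change of -2.23 (SE 0.35, limma adjusted p = 0.0283). The groups of TLR2 did not overlap. It entered the test through the NRP2-low group alone, and its call stayed without S37 and ended without any other library (adjusted p from 0.0706 to 0.154), and also without a filter (0.126). With a pseudocount of 0.1 the log2 fold change of TLR2 was -3.90, and with voom -4.53. The partners of PLAUR did not pass: PLAU averaged 595 ± 241 TPM in NRP2-high cells and 473 ± 197 TPM in NRP2-low cells (SD, n = 3 each; log2 fold change 0.33), and the integrin genes ITGB1 and ITGA3 had log2 fold changes of 0.36 and 0.43. The median log2 fold change of the 12 was 0.38.

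None of the 14 immediate early and related genes was called by limma, and 2 had an unadjusted p under 0.05, DUSP1 and IER5L. Such a p was found for 1065 of all 15214 tested genes. It was also found for 2 of the 4 tested members (PTX3 and SAA1) and 2 of the 3 other acute-phase genes. Among inducers and regulators 11 of 25 had it, and among receptors and partners 3 of 12. Of the genes counted here, SAA1, FGB, IL1B, TNF, IL1R1 and TLR2 entered the test through their higher group alone and had to differ. The counts also pool both directions, with FGB, TNFAIP6 and LIF higher in NRP2-high cells. Nothing is therefore read from these counts. DUSP1, a phosphatase gene of the stress response, was at 343, 189 and 182 TPM in NRP2-high cells, against 234, 72.8 and 62.4 TPM in NRP2-low libraries (log2 fold change 1.15, limma adjusted p = 0.655, or 0.0408 without S35). EGR1, an early response transcription factor gene, was at 820, 272 and 124 TPM in NRP2-high cells, against 836, 68.5 and 68.8 TPM in NRP2-low libraries, so S38 and S35 were the highest, as for IER3. MCL1, an anti-apoptotic gene, had a log2 fold change of 0.018, which turned below 0 after median log ratio scaling (-0.11). The median of the 14 was 0.07, near the 0.10 of all tested genes.

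**Figure D4:**
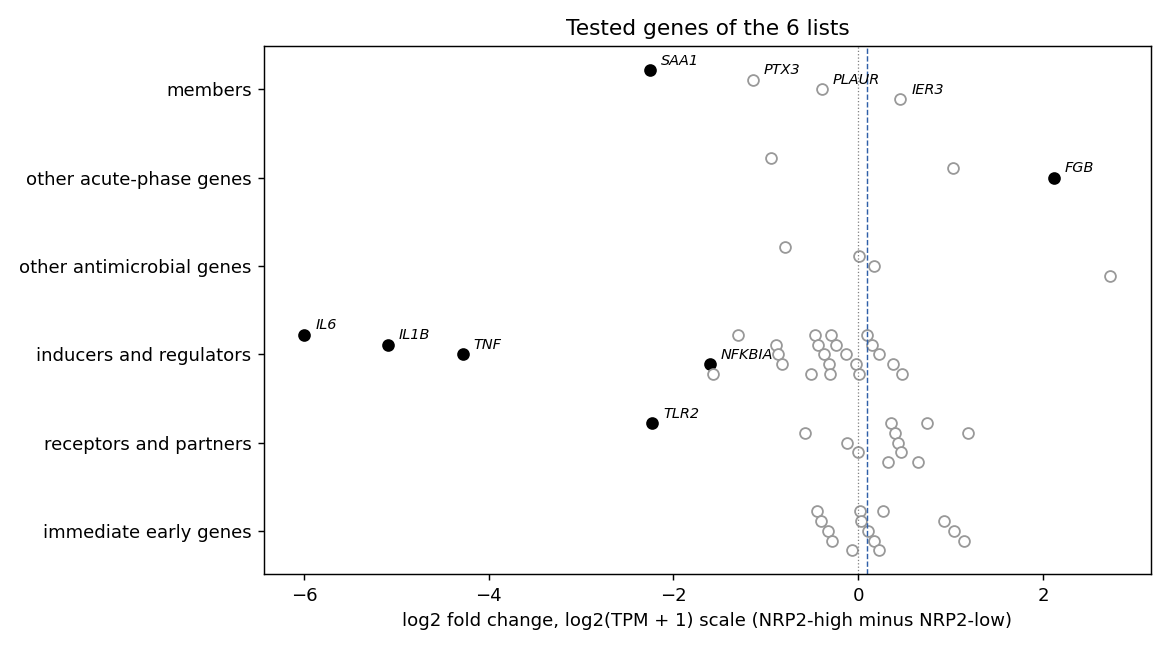
Log2 fold change (NRP2-high minus NRP2-low, log2(TPM + 1) scale) of each tested gene in the 6 lists; filled points have an adjusted p below 0.05 and the dashed line is the median of all tested genes, 0.10. Called genes to the left are SAA1, IL6, IL1B, TNF, NFKBIA and TLR2, and FGB is the called gene to the right; vertical position within a list carries no value.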

How the data were processed

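The authors deposited 1 table of TPM per gene and library. The submitters' processing notes name featureCounts 1.5.2, DESeq2 1.20.0 and build hg38 (GRCh38.p12), with no roles. The aligner and library strand were not given. Libraries were assigned to groups by the word in the column name. Reads were recovered as TPM times length over the smallest such product in each library, and 100% came out whole (tolerance 0.001). Symbols and identifiers are those of the table, and all 9 member identifiers match GENCODE release 29. The end positions of SAA1, SAA2 and PLAUR differ from that release.

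Differences were tested with limma 3.58.1 (R 4.3.3) on log2(TPM + 1), with lmFit and eBayes with a variance trend, two-sided, and no covariate, after a filter of 1 TPM in 3 libraries. This scale understates changes of low genes. Other steps used Python 3.11.15, pandas 2.3.3 and numpy 2.4.6. The fit was also run on simulated data, whose outcome is not given here, so nothing about these data is read from it. Intervals of log2 fold changes come from the spread between libraries, whereas those of read ratios cover counting error only. Floors cover the counting error of the NRP2-high reads alone. Alternatives were other pseudocounts, filters, scalings and models, and each library left out. All members were named, then the called genes of each list and up to 3 others per list with the highest mean TPM. The members and lists were chosen with earlier results of these data known, and the motifs and the order of libraries after values were seen.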

Additional observations from a re-analysis of the deposited data

How the results depend on the processing

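The number of members past the threshold was 1, SAA1. It was 0 without a filter and 0 with a filter of 5 TPM, which SAA1 does not reach in 3 libraries, and between 0 (without S36) and 1 when a library was left out. The number of all genes past the threshold was 127, against 74 without a filter, 69 with the filter of 5 TPM and 197 with voom on recovered reads, and it ran from 43 without S36 to 97 without S40. Over 51 recomputed values of the 4 tested members 49 kept their direction and side of the threshold, 2 lost the call and 0 changed sign. For PTX3, PLAUR and IER3 keeping their side means only that they stayed uncalled. PLAUR came to -0.024 without S40 and IER3 to 0.020 without S37. SAA1 passed the filter only through its NRP2-low libraries, which fixed its direction, so the total does not measure robustness. Among 321 values of the other named genes 8 changed sign. These were for MCL1, at -0.11 after median log ratio scaling, -0.072 without mitochondrially encoded genes, -0.10 with voom and -0.31 to 0.32 with a library left out, for ANG, at -0.17 to 0.57, and for OSMR, at -0.39 to 0.032, with a library left out. The cause was not tested. Median log ratio scaling moved the median of all genes to -0.01, from 0.10 as deposited. NRP2 kept its direction in all fits and lost the call in 7 of 13. TNFAIP3 and IL1R1, named after their values were seen, were called with voom alone (adjusted p = 0.0395 and 0.0349). IL1R1 entered the test through the NRP2-low group alone and had to differ. LCN2, SAA2, PI3, SLPI and IL32 could be fitted only without a filter. None of them has more than 37 reads in a group. No paired analysis was possible because the column names carry no replicate numbers of the labels.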
